A study of Mus musculus with 13 samples.

Results

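Primary bone marrow neutrophils of wild-type mice were exposed to RNase A outside the cells and compared with mock-treated neutrophils by poly(A)-selected RNA-seq. The comparison holds 4 of the 13 libraries of the series, 2 mock and 2 exRNaseA (the name used here for extracellular RNase A), and 14184 of the 55536 genes in the files had enough counts to be tested. The 4 libraries were chosen by treatment label alone, so no measured value entered that choice. The gene lists used below were chosen with earlier results of these data known. All 4 libraries share the WT genotype, the marrow source, TRIzol extraction and poly(A) selection. Cells were suspended in HBSS, a balanced salt solution, and digestion lasted 10 min at 37 °C. No dose of enzyme and no age or sex of the mice is given in the labels. Labels of the mock samples repeat the digestion protocol; their treatment and title fields decided the group. The series calls the libraries biological replicates but does not say that they came from separate animals, so every p-value below measures only the spread between these 4 libraries. The question that the title and design pose is what digestion outside the cell does to the RNA inside it.

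RNase A is a small secreted endonuclease that cuts single-stranded RNA after pyrimidines and does not cross an intact plasma membrane readily. RNA within the cell is shielded by that membrane and by the cytosolic RNase inhibitor, while RNA exposed on the surface, released by broken cells or held in debris is open to the enzyme. Ribosomal RNA (rRNA) is the most abundant cellular RNA and carries no poly(A) tail, so a poly(A)-selected library normally counts little of it. Neutrophils are short-lived granulocytes that store their effector proteins in granules, and their messages for granule proteins and calprotectin are very abundant in marrow.

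The well-counted genes that fell most are known to collect rRNA reads, so the sequence at one of them is shown first. Gm42418 lies on chromosome 17 (39846354 to 39848202, mm10) and is named Rn18s-rs5 and typed as a pseudogene related to 18S rRNA in RefSeq GRCm38.p6. The deposited small RNA table of the same series holds 10 read sequences placed within this locus. The reverse complement of each shares at least 20 bases with a read that the same table classes as rRNA. The shared run was between 32 and 42 bases long. The locus read most abundant after capture on wheat germ agglutinin (WGA), a lectin, maps to the reverse strand at chr17:39846994-39847045, and its forward-strand sequence stands below beside the rRNA read, with the 42 shared bases in capitals.
Gm42418 locus, forward strand: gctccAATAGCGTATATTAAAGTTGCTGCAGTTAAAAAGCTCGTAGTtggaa
rRNA-class read: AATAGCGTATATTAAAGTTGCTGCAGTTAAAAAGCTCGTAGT
The locus read stood at 252 RPM (reads per 1000000 reads) in the neutrophil small RNA input and at 1955 RPM after WGA capture, and the rRNA read at 0.643 and 1.61 RPM, with 1 library each. The match is a description: it says that the forward strand of a short stretch of this locus has the sequence of an rRNA read. The locus read as sequenced is the reverse complement of that stretch. The match was made on small RNA, not on the poly(A) reads.

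Counts at 5 genes taken to carry rRNA sequence fell between 3.19-fold and 42.9-fold under exRNaseA. They were grouped as genes known to collect rRNA reads, with earlier results of these data known. The rRNA sequence within the 4 other than Gm42418 was not checked here, and the grouping is no independent evidence of their direction. In bulk RNA, fewer cells of a type and less RNA per cell cannot be told apart, nor can rRNA inside cells from rRNA outside them. Levels are given as counts per 1000000 counts (CPM), scaled by library total and TMM factor. They are relative to the other genes of a library, so a change shared by all messages would not show in them. Lars2, the gene of the mitochondrial leucyl-tRNA synthetase (chromosome 9, 123366927 to 123462675, mm10), had 1677 and 2153 CPM under mock and 80.0 and 77.0 CPM under exRNaseA. Gm26917, which has no entry in the RefSeq table, had 403 and 513 CPM under mock and 9.88 and 11.4 CPM under exRNaseA. Both genes were low in both exRNaseA libraries with no overlap, and the lower mock value exceeded the higher exRNaseA value 35.4-fold for Gm26917. Their log2 changes were -4.61 (SE 0.08, adjusted p = 3.93e-18) and -5.42 (SE 0.10, adjusted p = 1.10e-17) by the edgeR quasi-likelihood test, adjusted after Benjamini and Hochberg.

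The other 3 genes of the group fell less. Gm42418 had 306 and 409 CPM under mock and 73.1 and 68.7 under exRNaseA. AY036118, a lncRNA gene on chromosome 17 (39848112 to 39898385, mm10) that overlaps Gm42418 by 91 bases, had 810 and 936 CPM against 235 and 203. CT010467.1, which has no entry in the RefSeq table, had 3229 and 3739 CPM against 1038 and 1144. All 3 were low in both exRNaseA libraries without overlap, at 5.04-fold, 3.98-fold and 3.19-fold below mock (log2 changes -2.33, -1.99 and -1.67, edgeR adjusted p = 1.02e-12, 6.29e-15 and 6.29e-15). RSEM had split reads at these 3 genes, whose expected counts were not whole in any library, so their single values are uncertain while their sum is less so. That sum was 4345 and 5084 CPM under mock and 1346 and 1416 CPM under exRNaseA. Lars2 and Gm26917 had whole expected counts in each library.

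The spread between replicates was small beside the difference between groups at these genes. Mock replicate 2 exceeded mock replicate 1 by between 1.16-fold and 1.34-fold at all 5 genes. The ratio of exRNaseA replicate 2 to replicate 1 lay between 0.864 and 1.15, above 1 at 2 genes and below 1 at 3. Summed, the 5 genes held 6425 and 7750 CPM under mock and 1436 and 1504 CPM under exRNaseA, 4.82-fold lower, or 0.709% of the counts in mock and 0.147% in exRNaseA on average. An exact two-sided permutation test of this sum gave p = 0.333, the smallest that 2 against 2 libraries allow.

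**Figure D1:**
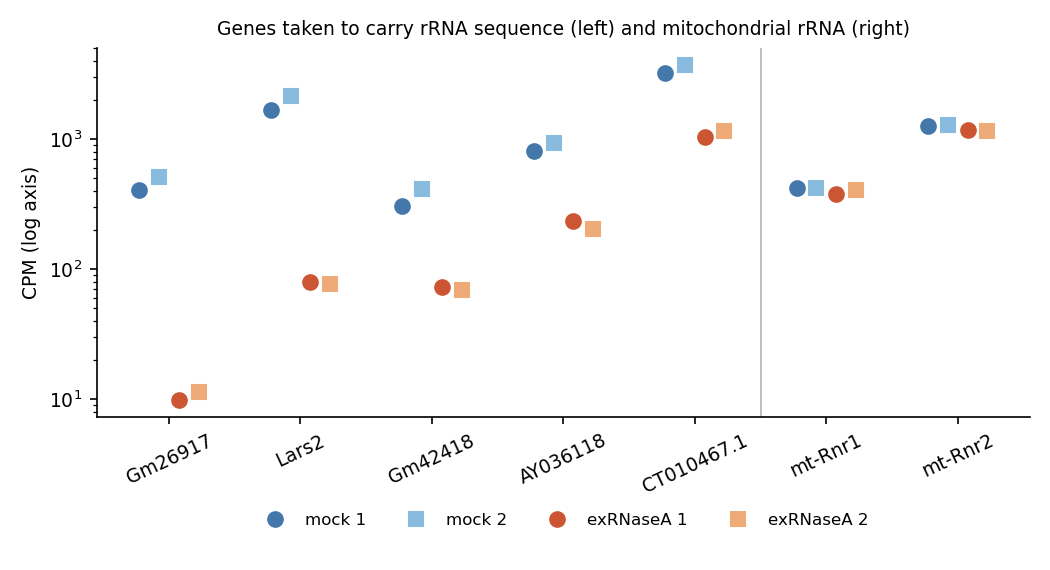
CPM on a log axis in each of the 4 libraries (blue, mock; orange, exRNaseA; circles, replicate 1; squares, replicate 2) for the 5 genes taken to carry rRNA sequence, left of the line, and for mitochondrial rRNA, right of it. The exRNaseA points of Gm26917 sit at 9.88 and 11.4 CPM under mock points at 403 and 513, while those of mt-Rnr2 sit at 1178 and 1161 under mock points at 1254 and 1275.

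Mitochondrial rRNA, which lies inside the organelle and receives short A tails, was close to its mock level. mt-Rnr2, the large-subunit rRNA (chromosome MT, 1094 to 2675), had 1254 and 1275 CPM under mock and 1178 and 1161 under exRNaseA. mt-Rnr1, the small-subunit rRNA (chromosome MT, 70 to 1024), had 420.4 and 420.8 CPM against 374 and 404. Both genes were lower in both exRNaseA libraries, with a log2 change of -0.11 each (SE 0.02 and 0.03). Neither passed edgeR's test (adjusted p = 0.0539 and 0.419). The direction of both was the same under TMM, total count and TPM scaling. DESeq2 called mt-Rnr2 (adjusted p = 0.0395) and not mt-Rnr1, and leaving out either exRNaseA library also gave a call of mt-Rnr2. Over 13 alternatives the log2 change of mt-Rnr2 ran from -0.12 to -0.08 and its adjusted p from 0.000107 to 0.941, with a call in 5.

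Messages of the mitochondrial genome overlapped between the groups as a class. Their 13 genes summed to 14595 and 14007 CPM under mock and to 13586 and 14898 CPM under exRNaseA, which overlap. edgeR called 0 of the 13, with a median log2 change of 0.00, and 1 had an unadjusted p under 0.05. That gene, mt-Co3, a subunit of cytochrome oxidase, had 252 and 168 CPM under mock and 277 and 252 under exRNaseA. Its mock libraries differed more than its groups, its counts were not whole in any library, and its log2 change was 0.33 (edgeR adjusted p = 0.581). It was called with no filter on low counts and without mock replicate 1. mt-Co1, the most counted of them, had a log2 change of -0.02.

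Small structured RNAs were nearly absent from the libraries, so their digestion could not be read at this depth. Of 150 snoRNA and scaRNA genes, guides of rRNA and snRNA modification, 131 had no count in any library. The class summed to 1.09 and 0.506 CPM under mock and 0.458 and 0.376 under exRNaseA. The sums do not overlap, but mock replicate 1 stands above the other three and the class holds 25.8, 10.5, 9.50 and 8.65 expected counts in all. U snRNAs and U3 summed to 5.75 and 6.67 expected counts under mock and to 2.15 and 4.22 under exRNaseA. Rn7sk, the 7SK RNA that holds back transcription elongation, had 29 and 33 counts under mock and 25 and 32 under exRNaseA, which overlap. The 7SL genes Rn7s1 and Rn7s2, the RNA of the signal recognition particle, had 15.5 and 14.5 counts each in mock and 15.5 and 13.5 in exRNaseA. Y RNA, vault and telomerase RNA genes listed in the files had 0 counts in all 4 libraries, which allows up to 3 counts per group.

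The nuclear lncRNAs summed to 4403 and 4458 CPM under mock and 4469 and 4813 CPM under exRNaseA. The summed log2 change of 0.07 rested on exRNaseA replicate 2, without which it was 0.01. Neat1, the scaffold of paraspeckles, had 912 and 937 CPM under mock and 978 and 986 under exRNaseA (log2 change 0.09, edgeR adjusted p = 0.366). Xist, the lncRNA that coats the inactive X, had 1025 and 1020 CPM against 1054 and 1065 (0.05, edgeR adjusted p = 0.747). Malat1, a speckle lncRNA, had 2441 and 2472 CPM against 2410 and 2733, which overlap. edgeR called 0 of the 5 tested nuclear lncRNAs, and 2 had an unadjusted p under 0.05. With no filter on low counts it called Neat1, and without exRNaseA replicate 1 Malat1. Under TMM 3 of the 5 were higher in both exRNaseA libraries (17.7% of all tested genes were), and by TPM 1 (24.8% of all tested genes were). Of 14 tested host genes of snoRNAs, edgeR called 0 (0 with an unadjusted p under 0.05); Gas5, the most counted, had a log2 change of 0.05.

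**Figure D2:**
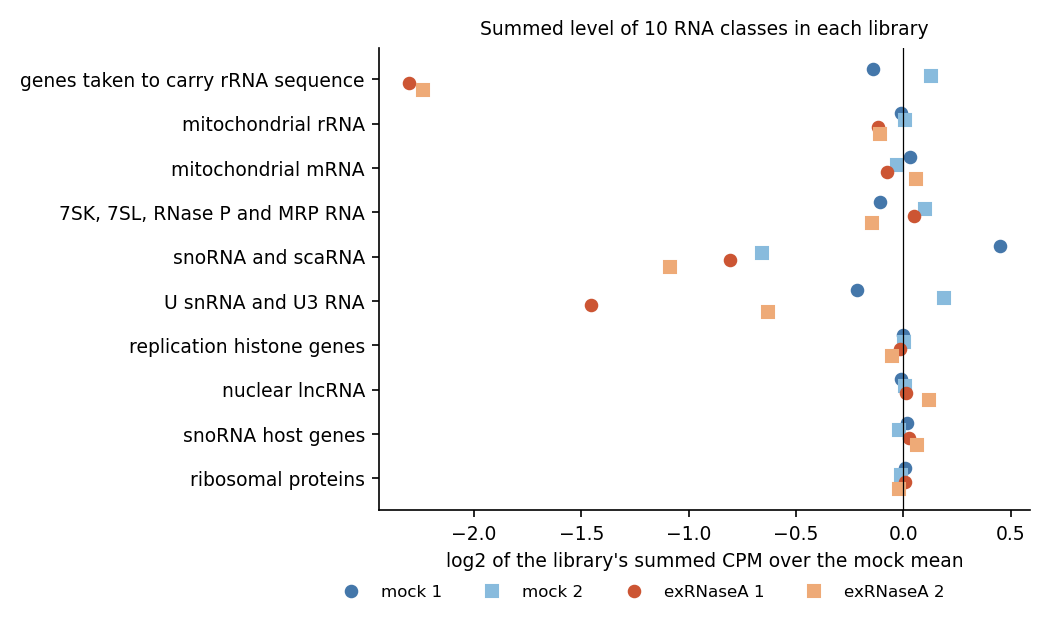
Summed CPM of 10 RNA classes in each library, as log2 of its ratio to the mock mean (blue, mock; orange, exRNaseA; circles, replicate 1; squares, replicate 2). The genes taken to carry rRNA sequence sit 2.27 below mock on average and mitochondrial rRNA 0.11 below it; the wide spread of snoRNA and U snRNA rests on few counts.

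Across all genes, edgeR called 10 genes lower and 3 higher at an adjusted p of 0.05, which is 0.0705% and 0.0212% of the 14184 tested. The unadjusted p was under 0.05 for 901 genes. Both exRNaseA libraries lay below both mock libraries for 18% of tested genes and above them for 17.7%; these shares move with the scaling, from 2555 lower and 2510 higher under TMM to 1855 and 3275 under total counts and 1604 and 3516 by TPM, against a median log2 change of 0.02 and 0.03 under the latter. The count of calls also depends on single libraries: it was 74 without mock replicate 1, 9 without mock replicate 2, 59 without exRNaseA replicate 1 and 29 without exRNaseA replicate 2. The 5 genes taken to carry rRNA sequence were called in every alternative that tested them.

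**Figure D3:**
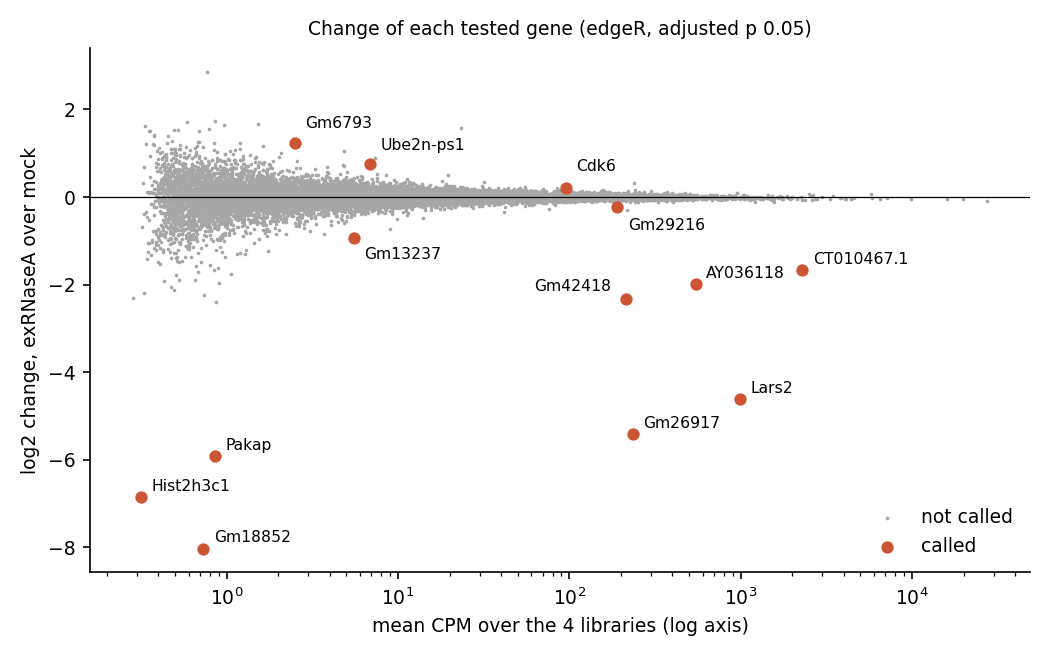
Log2 change (exRNaseA over mock) against the mean CPM of the 4 libraries on a log axis for the 14184 tested genes; orange points are the 13 called genes. The genes taken to carry rRNA sequence lie between -1.67 and -5.42 at mean levels where nearly every other gene lies close to 0.

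The other 8 called genes were weakly counted, near-identical to other genes or changed little. Gm18852, which RefSeq types as a transcribed pseudogene (chromosome 7, 105924344 to 105928691, mm10), was counted 43 and 23 times under mock and 0 times under exRNaseA. Set against a floor of 3 counts in the exRNaseA group it was 21.5-fold lower, with no allowance for counting error in mock (edgeR adjusted p = 0.000696). It was called in every alternative that tested it. Its expected counts under mock, 42.99 and 22.65, were not whole, so RSEM had split reads at it, and no sum with another gene was made. Gm29216 had 202 and 210 CPM under mock and 177.0 and 175.7 under exRNaseA, without overlap (log2 change -0.22, edgeR adjusted p = 0.00189). Gm13237, a pseudogene on chromosome 4, had 6.77 and 7.84 CPM against 3.13 and 4.43 (-0.93, edgeR adjusted p = 0.0343). Gm6793, a transcribed pseudogene on chromosome 8, was the opposite, with 1.59 and 1.41 CPM against 3.30 and 3.70 (1.23, edgeR adjusted p = 0.0483). The expected counts of Gm29216, Gm13237 and Gm6793 were not whole in any library. Leaving out single libraries ended the calls of Gm29216 (mock replicate 2), Gm13237 (mock replicate 2, exRNaseA replicate 1) and Gm6793 (either mock library, exRNaseA replicate 2). DESeq2 did not call Gm13237 or Gm6793 (adjusted p = 0.387 and 0.858), limma on TPM called none of the 3, and edgeR without the 5 genes taken to carry rRNA sequence called neither Gm13237 nor Gm6793; Gm6793 was also not called with overlapping genes summed. Just outside the threshold, AC129217.1 had 0.724 and 0.750 CPM against 2.76 and 1.90 (edgeR adjusted p = 0.0792).

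Cdk6, a cyclin-dependent kinase of G1 that is high in stem and progenitor cells, was the only called gene among the lists of cell cycle and progenitor genes. It had 87.8 and 88.8 CPM under mock and 99.9 and 103.8 CPM under exRNaseA, without overlap (log2 change 0.21, SE 0.04, edgeR adjusted p = 0.0343). DESeq2 and limma on TPM did not call it, nor did edgeR without the 5 genes taken to carry rRNA sequence, without either mock library or without exRNaseA replicate 2. Of 40 tested cell cycle genes, 12 were higher in both exRNaseA libraries and 7 lower in both under TMM (17.7% and 18% of all tested genes were). Under total counts 22 were higher and 4 lower (23.1% and 13.1% of all tested genes were), and by TPM 19 and 0 (24.8% and 11.3%). Mki67, a marker of dividing cells, had 1417 and 1407 CPM against 1430 and 1493, and Top2a, the topoisomerase of dividing cells, 456 and 466 against 466 and 471. The 12 stem and progenitor markers summed to between 449 and 456 CPM in the mock and between 464 and 477 under exRNaseA, and Cdk6 itself is one of them. The part of these cells in the Cdk6 call was not tested.

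Some calls lay at genes that overlap or copy another gene, and did not stand once the pair was summed. Pakap had 46 and 30 counts under mock and 0 and 1 under exRNaseA, 74.3 times as much under mock (95% interval from 12.9 to 2973 by an exact method, covering counting error only; edgeR adjusted p = 0.000307), and DESeq2 did not call it (adjusted p = 0.0766). Akap2, an anchor of protein kinase A that RefSeq lists as the same gene as Pakap, had 3.54 and 3.82 CPM in mock and 6.41 and 5.57 in exRNaseA. Summed, the pair had 129 and 109 counts in mock and 133 and 129 in exRNaseA, which overlap, and the summed log2 change was 0.16 (95% interval -0.15 to 0.46, edgeR adjusted p = 0.915). The annotated split between the 2 genes differed between groups and their total did not pass the test.

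Ube2n-ps1, a pseudogene of Ube2n, which encodes a ubiquitin-conjugating enzyme, had 5.28 and 4.998 CPM in mock and 8.97 and 8.35 in exRNaseA (log2 change 0.75, edgeR adjusted p = 0.0343). Ube2n itself had 68.4 and 63.6 CPM against 68.0 and 64.7, and the summed pair had a log2 change of 0.07 (95% interval -0.02 to 0.17, edgeR adjusted p = 0.854). Ube2n-ps1 was called in 4 of the 11 alternatives that tested it. DESeq2 (adjusted p = 0.724), limma on TPM, edgeR without the 5 genes taken to carry rRNA sequence, and edgeR without either mock library or without exRNaseA replicate 1 did not call it. The files hold Nnt, the gene of a mitochondrial transhydrogenase, under 2 identifiers, whose log2 changes differed in sign, 0.51 (edgeR adjusted p = 0.203) and -0.48 (edgeR adjusted p = 0.323), neither called (both were with no filter on low counts). Their sum had a log2 change of 0.09 (95% interval -0.04 to 0.23, edgeR adjusted p = 0.867). With these 3 pairs summed before the fit, an alternative chosen after seeing the data, edgeR called 10 genes, 9 lower and 1 higher.

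**Figure D4:**
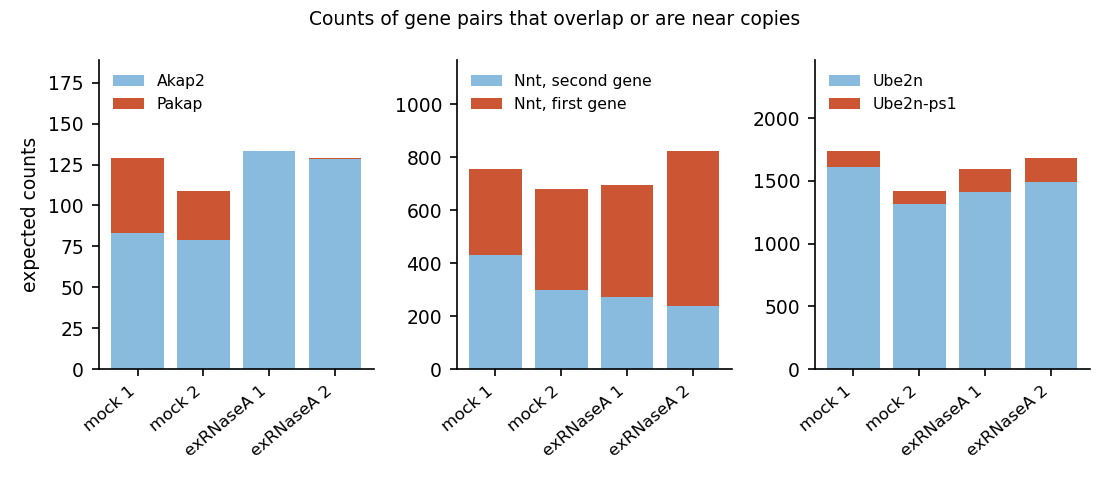
Expected counts in each of the 4 libraries for 3 pairs of genes that overlap or are near copies, stacked so that the bar's height is the pair's sum. The Pakap part is missing from both exRNaseA bars at this scale, while the summed height is 129 and 109 in mock and 133 and 129 in exRNaseA.

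Replication-dependent histone genes have messages that end in a stem-loop in place of a poly(A) tail. Of 23 tested members, edgeR called 1 lower and 0 higher (0.0705% and 0.0212% of all tested genes were). Under TMM 8 were lower in both exRNaseA libraries and 2 higher (18% and 17.7% of all tested genes were). By TPM 7 were lower and 4 higher (11.3% and 24.8%). The unadjusted edgeR p was under 0.05 for 5 members, 4 of them lower, which is 21.7% against 6.35% of all tested genes. Hist2h3c1, an H3 gene on chromosome 3 (96246685 to 96247348, mm10), was counted 17 and 12 times under mock and 0 times under exRNaseA. Set against the same floor it was 9.45-fold lower, again with no allowance for counting error in mock (edgeR adjusted p = 0.0343). DESeq2 and edgeR without the 5 genes taken to carry rRNA sequence, without mock replicate 2 or without either exRNaseA library did not call it. Its expected counts under mock, 16.56 and 11.76, were not whole, so RSEM had split reads at it. With its copies Hist2h3b and Hist2h3c2 added, the 3 genes had 22.4 and 15.3 counts in mock and 8.38 and 4.31 in exRNaseA. The log2 change of that sum was -1.52. Another pair of copies was split unevenly, with Hist2h2aa1 at 6.26 and 5.59 CPM in mock and 3.22 and 4.78 in exRNaseA, and Hist2h2aa2 at 10.0 and 10.4 against 13.6 and 12.5. Their summed level was 16.28 and 16.03 CPM in mock and 16.8 and 17.3 in exRNaseA. The whole class of 70 genes summed to 343 and 344 CPM in mock and 340 and 331 in exRNaseA. Its summed log2 change of -0.03 turned to 0.04 by TPM. Most of this sum came from Hist1h1c, with 227 CPM in each mock library and 226 and 219 CPM in exRNaseA.

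Detection differed at few genes. Of the genes with at least 5 counts in each library of 1 group, 6 had 0 counts in both exRNaseA libraries and 8 had 0 in both mock libraries, while 14491 genes had at least 5 counts in all 4 libraries. At a minimum of 1 count the numbers were 365 and 293, and at 10 counts 2 and 0. Besides Gm18852 and Hist2h3c1, the mock side held Gm20479 with 5 and 23 counts, Ugt1a10, a glucuronosyltransferase gene, with 5 and 10, and Gm48141 with 9 and 6. The exRNaseA side held Gm10108 with 11 and 9 counts, Gm17122 with 9 and 11, A630072M18Rik with 5 and 10, Hist1h2ao, an H2A gene, with 8 and 5, and Gm8750 with 7 and 5. Hist1h2ao has a copy, Hist1h2ap, at between 70.6 and 129 expected counts in every library.

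The neutrophil identity of the libraries was clear from their markers. The 12 neutrophil markers summed to between 90838 and 91462 CPM in the mock and between 85949 and 89024 CPM under exRNaseA, and none was at 0. Markers of other marrow cells were lower: 12 B cell markers summed to between 2587 and 2639 CPM, 13 erythroid markers to between 2819 and 2938, 12 monocyte and macrophage markers to between 609 and 632, 12 stem and progenitor markers to between 449 and 477, 12 eosinophil, basophil and mast cell markers to between 259 and 277, 12 T and NK markers to between 95.1 and 101 and 10 megakaryocyte markers to between 20.2 and 22.4. No marker of any of these lists was at 0 in all 4 libraries. The summed levels did not overlap between groups for the neutrophil, B cell and eosinophil lists, which were lower in exRNaseA. Nor did they for the erythroid and the stem and progenitor lists, which were higher. By TPM the sign of the B cell change turned. Such a sum can rest on 1 gene. Of the 12 B cell markers 6 had a negative and 6 a positive log2 change. Ighm, the most counted of them, had 1369 and 1367 CPM in mock and 1337 and 1328 in exRNaseA. Of the 12 stem and progenitor markers 5 were negative and 7 positive. The called gene Cdk6 alone had 87.8 and 88.8 CPM in mock and 99.9 and 103.8 in exRNaseA.

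The 10 genes with the most counts, among them S100a9 and S100a8 (the calprotectin subunits), Ngp, Ltf (lactoferrin) and Lyz2 (lysozyme), had log2 changes between -0.08 and 0.06, and edgeR called 0 of them (lowest adjusted p = 0.288). With no filter on low counts S100a9, S100a8, Ngp and Actb gained a call, and without exRNaseA replicate 1 S100a9, S100a8, Ltf, Lyz2, Retnlg and Actb did. Without exRNaseA replicate 2, S100a9 and Ngp gained one. S100a9 had 28116 and 28270 CPM under mock and 27471 and 25776 under exRNaseA. Its exRNaseA libraries were both lower, replicate 2 more so, and its log2 change was -0.08 (SE 0.02, edgeR adjusted p = 0.288). Ltf had 10061 and 10014 CPM against 9819 and 9546, lower in both exRNaseA libraries. Actb, the cytoskeletal actin, had 5592 and 5736 CPM against 5699 and 6126, which overlap. Of the 10 genes, 9 had a negative log2 change and 7 were lower in both exRNaseA libraries under TMM scaling (18% of all tested genes were). Under total counts the log2 change of Thbs1, among the 10, turned from -0.01 to 0.01, and that of S100a9 was -0.06.

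Neutrophil marker genes and secondary and tertiary granule genes had mostly negative log2 changes under TMM scaling, 11 of 12 and 16 of 20. Of all 14184 tested genes 7111 were negative, and edgeR called 0 in either list. The lists share members, among them Ngp and Ltf, which are also among the 10 most counted genes, so they are not separate results. With no filter on low counts edgeR called S100a9, S100a8 and Ngp lower. Of the 12 neutrophil markers, 10 were lower in both exRNaseA libraries (18% of all tested genes were), with a median log2 change of -0.05. By total count scaling 6 were (13.1% of all tested genes), and by TPM 5 (11.3%). Higher in both were 17.7% of all tested genes under TMM and 24.8% by TPM. edgeR called 0 of the 12, while 10 had an unadjusted p under 0.05 and a negative change (6.35% of all tested genes had such a p in either direction). Ly6g, a surface marker of neutrophils, had 236 and 230 CPM in mock and 219 and 214 in exRNaseA (-0.11, edgeR adjusted p = 0.419). Csf3r, the G-CSF receptor, had 1319 and 1310 CPM against 1316 and 1315 (0.00). Of 20 secondary and tertiary granule genes, 13 were lower in both exRNaseA libraries under TMM, 6 under total counts and 5 by TPM, where 5 were higher; 10 had an unadjusted p under 0.05 and edgeR called 0. Of 11 genes listed as primary granule genes, 6 had a negative change and 5 a positive one. Among them 1 was lower in both exRNaseA libraries and 4 were higher (0 lower and 5 higher by TPM). The lower one was Hp, haptoglobin, the most counted of the list. It had 747 and 746 CPM in mock and 738 and 706 in exRNaseA (-0.05, edgeR adjusted p = 0.795). Mpo, myeloperoxidase, had 390 and 400 CPM against 407 and 405 (0.04, edgeR adjusted p = 0.867).

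edgeR called 0 receptor genes. Among all tested genes, 18% were lower in both exRNaseA libraries and 17.7% higher under TMM. The shares were 13.1% and 23.1% under total counts and 11.3% and 24.8% by TPM. The unadjusted p was under 0.05 for 6.35% of all tested genes. Of 24 pattern recognition and Fc receptor genes, 16 were lower in both exRNaseA libraries under TMM, 9 under total counts and 5 by TPM, with medians of -0.04, -0.02 and -0.01; edgeR called 0, and 4 had an unadjusted p under 0.05. Clec4a2, an inhibitory lectin receptor, had 190 and 185 CPM in mock and 175.8 and 174.6 in exRNaseA (-0.10, edgeR adjusted p = 0.593). Lilrb4a, another inhibitory receptor and the most counted, had a log2 change of -0.03. Of 21 chemoattractant receptor genes, 8 were lower in both exRNaseA libraries and 2 higher under TMM and 4 and 4 by TPM, edgeR called 0 (3 with an unadjusted p under 0.05), and the median of -0.03 turned to 0.04 by TPM. Cxcr2, the receptor of neutrophil-attracting chemokines, had 1146 and 1171 CPM against 1111 and 1107 (-0.06, edgeR adjusted p = 0.628). Of 23 cytokine and growth factor receptor genes, 11 had a negative and 12 a positive change, with a median of 0.00; 6 were lower in both exRNaseA libraries and 3 higher, and 4 and 7 by TPM (3 with an unadjusted p under 0.05, 0 called by edgeR). Il1rap, a coreceptor of interleukin 1 with the lowest log2 change of that list, had 63.3 and 60.5 CPM against 55.1 and 54.9 (-0.17, edgeR adjusted p = 0.404).

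edgeR called 0 activation and stress genes, while its fit with no filter on low counts called Atf3 lower and Hspa1a higher. Across all tested genes, 18% were lower in both exRNaseA libraries and 17.7% higher under TMM, and 11.3% and 24.8% by TPM. An unadjusted p under 0.05 was found for 6.35% of all tested genes. Of 36 immediate early genes, which respond within minutes to stimulation, 9 were lower in both exRNaseA libraries and 8 higher under TMM, with a median of -0.00. By TPM 1 was lower and 18 higher, which is 50% of the list against 24.8% of all tested genes, with a median of 0.04. edgeR called 0, and 1 had an unadjusted p under 0.05. That gene, Atf3, a stress-induced transcription factor, had 87.8 and 87.5 CPM in mock and 78.2 and 76.3 in exRNaseA, without overlap (-0.18, SE 0.04, edgeR adjusted p = 0.152). Of 37 tested NF-κB and cytokine genes 12 were lower in both and 6 higher under TMM, and 3 and 9 by TPM, and edgeR called 0 (3 with an unadjusted p under 0.05), and their median of -0.04 turned to 0.00 by TPM. Il1b, interleukin 1 beta, had 1967 and 1970 CPM against 1942 and 1867 (-0.05, edgeR adjusted p = 0.756), and Nfkb2, an NF-κB subunit, 36.9 and 34.8 against 39.7 and 42.4 (0.20, edgeR adjusted p = 0.548). Of 17 heat shock genes, 4 were lower in both exRNaseA libraries and 4 higher under TMM, and 0 and 7 by TPM; edgeR called 0, and 1 had an unadjusted p under 0.05. That gene, Hspa1a, an inducible chaperone, had 6.70 and 7.48 CPM against 9.25 and 10.8 (0.51, edgeR adjusted p = 0.316); its near-identical copy Hspa1b had 17.2 and 17.9 against 17.2 and 17.6, and the counts of Hspa1a were not whole in any library.

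Genes of adhesion, movement, oxidative burst and survival were likewise not called by edgeR with its filter. For comparison, 18% of all tested genes were lower in both exRNaseA libraries and 17.7% higher under TMM. By TPM these shares were 11.3% and 24.8%, and 6.35% of all tested genes had an unadjusted p under 0.05. Of 38 actin cytoskeleton genes, 15 were lower in both exRNaseA libraries and 3 higher under TMM and 7 and 6 by TPM, 7 had an unadjusted p under 0.05, and the median of -0.03 turned to 0.00 by TPM. Arpc3, a subunit of the Arp2/3 complex that nucleates branched actin, had the smallest p of these, with 340 and 347 CPM under mock and 323 and 312 under exRNaseA, without overlap (-0.11, edgeR adjusted p = 0.292), and it was called with no filter on low counts and without exRNaseA replicate 1. Of 20 integrin and activator genes, 5 were lower in both and 3 higher under TMM, and 1 and 1 by TPM (1 with an unadjusted p under 0.05); Itgam, the alpha chain of Mac-1, had 2183 and 2171 CPM against 2117 and 2102 (-0.05, edgeR adjusted p = 0.751). Of 9 genes of the NADPH oxidase, which makes superoxide, 4 were lower in both and 0 higher under TMM, and 1 and 5 by TPM (1 with an unadjusted p under 0.05), with a median of -0.02 that turned to 0.03 by TPM. Of 34 genes of apoptosis and survival, 11 were lower in both and 5 higher under TMM, and 4 and 4 by TPM (5 with an unadjusted p under 0.05). Fas, a death receptor, had 51.8 and 51.0 CPM against 46.1 and 47.3 (-0.14, edgeR adjusted p = 0.684), and Cflar, which blocks death receptor signalling, had 242 and 243 against 254 and 252 (0.06, edgeR adjusted p = 0.753). Both genes were without overlap between groups, in opposite directions.

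edgeR called 0 genes that sense or degrade RNA. The shares over all tested genes were 18% lower in both exRNaseA libraries and 17.7% higher under TMM. By TPM they were 11.3% and 24.8%, and 6.35% of all tested genes had an unadjusted p under 0.05. Of 27 tested RNA sensors, 7 were lower in both exRNaseA libraries and 4 higher under TMM, and 3 and 7 by TPM, where the median turned from -0.01 to 0.04 (2 with an unadjusted p under 0.05). Tlr13, the endosomal receptor for a bacterial rRNA sequence, had 493 and 486 CPM in mock and 473 and 469 in exRNaseA (-0.06, edgeR adjusted p = 0.753). Of 37 interferon-stimulated genes, 14 were lower in both and 2 higher under TMM, and 7 and 6 by TPM (6 with an unadjusted p under 0.05), and the median of -0.04 turned to 0.01 by TPM; Ifitm3, an antiviral membrane protein, had a log2 change of -0.10 (edgeR adjusted p = 0.628). Of 10 tested genes of secreted RNases and their inhibitor, 4 were lower in both and 0 higher under TMM, and 2 and 0 by TPM (0 with an unadjusted p under 0.05). Rnh1, the cytosolic inhibitor that binds RNase A, had 24.9 and 22.5 CPM against 24.9 and 22.7. Ear1, an eosinophil-associated RNase of the RNase A family, had 33.9 and 33.0 CPM against 30.3 and 31.3 (-0.12, edgeR adjusted p = 0.795), and markers of eosinophils, basophils and mast cells summed to between 276 and 277 CPM in mock and between 259 and 272 in exRNaseA; their part in the Ear1 value was not tested. Of 49 mRNA decay genes, 11 were lower in both and 8 higher under TMM, and 7 and 8 by TPM (5 with an unadjusted p under 0.05); Cnot3, a subunit of the main deadenylase complex, had a log2 change of 0.13 (edgeR adjusted p = 0.628).

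The remaining pathway lists were likewise without calls by edgeR with its filter. Of 23 tested sialic acid genes edgeR called 0 (1 with an unadjusted p under 0.05); St6gal1, a sialyltransferase, had 40.7 and 42.3 CPM in mock and 38.5 and 36.0 in exRNaseA (-0.16, edgeR adjusted p = 0.699). Of 37 N-glycan genes edgeR called 0 (0 with an unadjusted p under 0.05), and the same held for the 6 genes linked to RNA transport and glycan attachment, whose log2 changes lay between -0.08 and 0.03. Of 84 tested ribosomal protein genes, 12 were lower in both exRNaseA libraries and 9 higher under TMM, 4 and 17 under total counts and 2 and 28 by TPM (4 with an unadjusted p under 0.05, 0 called). The shares over all tested genes moved the same way, from 18% lower and 17.7% higher under TMM. They were 13.1% and 23.1% under total counts and 11.3% and 24.8% by TPM, and 6.35% had an unadjusted p under 0.05. The ribosomal protein genes summed to 17376 and 17146 CPM in mock and 17370 and 17028 in exRNaseA. Rps27 had the smallest p of these, with 257 and 249 CPM against 238 and 227 (-0.12, edgeR adjusted p = 0.360), and it was called with no filter on low counts and without exRNaseA replicate 1. Of 13 erythroid markers, 7 were higher in both exRNaseA libraries and 1 lower under TMM, and 9 and 2 by TPM (2 with an unadjusted p under 0.05, 0 called), led by Ermap with 166 and 165 CPM against 181 and 176.5 (0.11, edgeR adjusted p = 0.473), while Hbb-bs, a beta globin, had 528 and 511 against 516 and 504. Among list members, DESeq2 called the 5 genes taken to carry rRNA sequence and mt-Rnr2. limma on TPM called the 5 genes and Snora75, a snoRNA with 1.70 and 1.79 expected counts under mock and 0 under exRNaseA, too few for the edgeR fit. Outside the lists, limma on TPM called Gm25776 higher (log2 change 3.35 with pseudocount 1 and 6.54 with 0.1). With pseudocount 0.1 it also called Gm22270 higher (7.87).

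**Figure D5:**
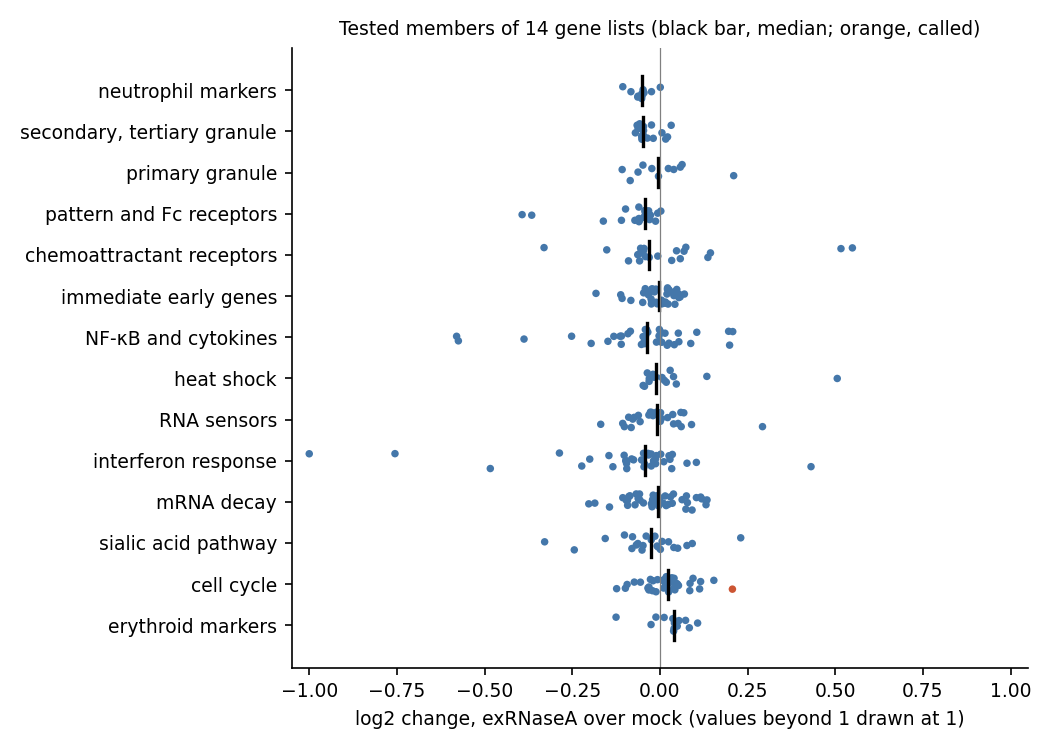
Log2 change (exRNaseA over mock) of each tested member of 14 gene lists, with the list's median as a black bar; orange marks a called gene and 1 interferon gene beyond -1 is drawn at -1. Medians lie between -0.05 for neutrophil markers and 0.04 for erythroid markers, and Cdk6 is the only called point.

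How tightly the relative level of a message could be held to that in mock depended on its count. Absolute amounts were not measured, and a loss shared by all messages would leave these intervals as they are. Of the 2056 tested genes with a mean between 100 and 1000 CPM, 99.7% had a 95% interval of the log2 change within ±0.25. The same share was 99.0% of the 99 genes at 1000 CPM or more and 72.7% of the 5675 genes between 10 and 100 CPM. Between 1 and 10 CPM 37.8% of 4572 genes had an interval within ±0.5, and under 1 CPM 9.43% of 1782 genes had one within ±1. These widths describe precision at a depth between 20661683 and 23722494 counts per library and are no limit of detection, since Gm29216 and Cdk6 were called at -0.22 and 0.21. With genes split by transcript length into 5 bins of about equal size, the median log2 change ran from -0.02 in the bin of shortest genes to 0.01 in that of the longest, while mock replicate 1 against 2 ran from 0.01 to -0.01.

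Isoform mix showed no called change. RSEM gives each gene a length averaged over its isoforms by their abundance, so a shift towards shorter or longer isoforms moves that length. limma called 0 of 6934 genes, which is 0%, and 378 had an unadjusted p under 0.05. The length moved by less than 0.1 on the log2 scale for 88.3% of genes. Fndc3a, which has 7 annotated isoforms here, had mean lengths of 4840 and 4858 bases under mock and 5426 and 5382 under exRNaseA, without overlap. Zfp729a, a zinc finger gene, had 6886 and 7315 bases against 5107 and 5097. Their log2 changes were 0.16 and -0.48 with an adjusted p = 0.889 each by limma. Hsp90aa1, Tnrc18 and Klhl2, the next by p, had log2 changes of -0.07, -0.12 and 0.17 with the same adjusted p = 0.889 by limma.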

How the data were processed

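The RNA-seq values used here are expected counts, TPM and transcript lengths per gene, deposited by the authors. The submitters' processing notes name RSEM 1.3.3, STAR 2.4.2a and the build mm10. The strand used in counting and the release of the annotation: not given in the sources used here. RPM values of single small RNA sequences come from the authors' deposited table and serve only for the sequences shown.

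The gene lists and their members were chosen with earlier results of these data known. Of 55536 genes 55450 had a symbol. RefSeq (GRCm38.p6, which is mm10) gave coordinates and biotypes for 90.8% of tested genes. Expected counts were rounded, filterByExpr of edgeR 4.0.16 left 14184 genes, TMM factors lay between 0.993 and 1.01, and its quasi-likelihood F test set 2 exRNaseA against 2 mock libraries without covariates at an adjusted p of 0.05 (biological coefficient of variation 0.0244). The 95% intervals and SE come from the test's F value. Isoform-averaged length was tested with limma 3.58.1 on log2 values of genes at 10 CPM or more with over 1 isoform. The fits were tested on simulated data. Library totals lay between 20661683 and 23722494 counts, and intervals on counts cover counting error only.

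Named genes were all called genes, the 10 with the most counts, 2 most counted members and the smallest-p member of each list, the 5 smallest p of the length test, up to 5 genes per direction by detection, and partners of called genes. Ly6g, Rnh1, Hspa1b, Snora75, Gm25776, Gm22270, Nnt, Hist1h2ap and the Hist2h2aa and Hist2h3 copies were named after their values were seen. Alternatives were DESeq2 1.42.0, total counts, TPM with limma (pseudocount 1 or 0.1), other filters, the replicate block, the fit without the 5 genes taken to carry rRNA sequence, summed pairs and each library left out. The 9 small RNA libraries were not analysed further here.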

Additional observations from a re-analysis of the deposited data

How the results depend on the processing

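Of the 13 calls (10 lower, 3 higher), 6 passed in every alternative that tested the gene: the 5 genes taken to carry rRNA sequence and Gm18852. The count was 13 under total counts, 149 (99 lower, 50 higher) with no filter on low counts, 7 (6 and 1) at 10 CPM or more, 3 (3 and 0) without the 5 genes taken to carry rRNA sequence, 8 (8 and 0) by DESeq2, 7 (6 and 1) by limma on log2(TPM + 1), 8 (6 and 2) on log2(TPM + 0.1), and 10 (9 and 1) with overlapping genes summed. Leaving out 1 library gave between 9 and 74 calls, 8 to 66 lower and 1 to 32 higher. The cause of these changes was not tested. With the replicate number as a block the count was 55 (29 lower, 26 higher); deviations of same-numbered libraries had a correlation of 0.04 over 7830 genes, so the numbers were not taken to pair the libraries. Summed by TPM, the log2 change was -1.997 for the genes taken to carry rRNA sequence (-2.27 by CPM), -0.0785 for mitochondrial rRNA (-0.11), 0.0401 for histone genes (-0.03), 0.0826 for snoRNA hosts (0.0449) and 0.0268 for ribosomal proteins (-0.00516). The length test gave 0 calls in all 8 settings. Among 123 named genes under these alternatives, 47 that were not called changed sign in some setting without a call, and no called gene changed sign. Of the named genes that edgeR did not call, 22 gained a call in some alternative: 16 with no filter on low counts, 13 without exRNaseA replicate 1, 12 with the replicate block, 4 without exRNaseA replicate 2, 1 without mock replicate 1 and 1 by DESeq2. Those gained both with no filter and with the block include S100a9, Atf3, Hspa1a, Arpc3, Rps27, mt-Co3, Akap2, AC129217.1 and both Nnt identifiers; Il1b and Mki67 were gained without exRNaseA replicate 1 only. With 2 libraries per group no library could be tested as an outlier.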
